A study of Mus musculus with 12 samples.

Results

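ERVL elements are the endogenous retroviruses of one family of the long terminal repeat (LTR) class, and the loci described here are all rows of the deposited repeat count table whose class and family are given as LTR/ERVL. They numbered 104706 of the 3156417 repeat loci in that table and fell into 187 subfamilies. MERVL and MT2 subfamilies, with MT2 naming the LTRs and MERVL the internal parts of the youngest members, made up 21 of these subfamilies and 37836 loci. The other 166 subfamilies, called older here, held 66870 loci. At least 1 read was counted at 16275 ERVL loci (15.5%), that is, at 6502 MERVL and MT2 loci (17.2%) and 9773 older loci (14.6%). A filter on low counts left 978 loci for testing, 397 of them MERVL or MT2 and 581 older, and 106 subfamilies, 15 of them MERVL or MT2 and 91 older.

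The libraries came from mouse naive CD4+ T cells from a source labelled Spleen and pLN, either wild type (WT) or labelled DDX55 KO, written KO below. DDX55 is a DEAD-box RNA helicase. The labels do not say how the knockout was made, in which cells, or in which strain. Both genotypes were stimulated for 0, 8 or 24 h before total RNA was taken. The plates carried anti-CD3 at 5 ug/ml and anti-CD28 at 2.5 ug/ml, a pair that engages the T cell receptor and its costimulator. Each of the 6 groups of genotype and time had 2 libraries, which the labels do not tie to separate animals, so the p-values measure only the spread between these samples. The libraries were stranded, depleted of ribosomal RNA and read in pairs.

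An ERVL provirus carries gag and pol genes between its LTRs and no envelope gene, and most copies have been reduced to a single LTR by recombination. In the mouse, MERVL and its MT2_Mm LTR are known for a burst of transcription in the 2-cell embryo, where the LTR serves as promoter for a set of chimeric transcripts, and chromatin factors such as CAF-1 and histone methyltransferases keep the elements silent in other cells. Old LTR fragments also lie inside the exons and introns of ordinary genes, where reads from the host transcript can be counted to the repeat.

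The following 7 stretches show what ERVL sequence looks like inside known transcripts and just upstream of a gene start. They are given 5′ to 3′ on the strand of the gene, from GENCODE M21 transcripts or, for Slc28a2, from RefSeq GRCm38.p6 promoters, in GRCm38 coordinates. Fv1 is a restriction factor against murine leukaemia viruses that descends from an ERVL gag gene, and 1297 of the 1322 bases of the MERVL_2A-int locus lie in its transcript, of which the first 300 are shown. In Ggta1, a galactosyltransferase gene, the coding sequence starts inside an MT2B LTR. Clspn (claspin, a replication checkpoint adaptor) and Rbm28 (a nucleolar RNA-binding protein) have coding exons that run into an MT2B and an MT2B2 element. The Slc28a2 stretch, upstream of the start of this nucleoside transporter gene, is MT2A, and the Il2ra and 4930417O13Rik stretches are exons of noncoding transcripts in RMER15 and MLT2F.
Fv1, MERVL_2A-int, chr4:147868979-147869278, plus strand: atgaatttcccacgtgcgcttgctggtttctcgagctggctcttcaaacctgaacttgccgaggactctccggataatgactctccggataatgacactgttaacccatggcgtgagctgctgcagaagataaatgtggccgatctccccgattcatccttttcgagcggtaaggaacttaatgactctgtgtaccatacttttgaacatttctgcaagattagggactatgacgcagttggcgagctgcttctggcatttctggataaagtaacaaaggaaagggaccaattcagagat
Ggta1, MT2B, chr2:35423232-35423327, minus strand: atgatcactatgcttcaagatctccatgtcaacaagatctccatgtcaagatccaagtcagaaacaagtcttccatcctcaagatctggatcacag
Clspn, MT2B, chr4:126578390-126578434, plus strand: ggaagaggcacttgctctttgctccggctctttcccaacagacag
Rbm28, MT2B2, chr6:29131267-29131341, minus strand: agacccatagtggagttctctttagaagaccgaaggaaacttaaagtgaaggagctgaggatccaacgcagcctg
Slc28a2, MT2A, chr2:122426315-122426434, plus strand: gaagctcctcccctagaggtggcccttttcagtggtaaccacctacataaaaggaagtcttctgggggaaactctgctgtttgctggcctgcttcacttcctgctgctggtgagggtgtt
Il2ra, RMER15, chr2:11679708-11679861, plus strand: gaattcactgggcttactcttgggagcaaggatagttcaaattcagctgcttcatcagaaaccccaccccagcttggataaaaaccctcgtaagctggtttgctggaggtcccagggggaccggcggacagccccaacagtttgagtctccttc
4930417O13Rik, MLT2F, chr6:125270242-125270413, plus strand: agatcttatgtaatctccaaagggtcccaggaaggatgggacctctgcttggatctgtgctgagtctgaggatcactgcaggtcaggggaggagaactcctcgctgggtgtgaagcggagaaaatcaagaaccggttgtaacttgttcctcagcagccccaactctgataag

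Most ERVL counts came from elements inside genes. Over the 12 libraries the ERVL loci held 449229 counts, 221348 of them at MERVL and MT2 loci and 227881 at older loci. The 3230 loci that overlap an exon of GENCODE M21 (3.08% of ERVL loci) held 52.5% of these counts, the 35994 intronic loci held 35.9% and the 65482 loci outside genes held 11.6%. Over all LINE, SINE, LTR and DNA repeats, the corresponding shares were 39.9%, 40.0% and 20.1%. Exonic loci held 60.3% of the MERVL and MT2 counts and 45.0% of the older counts. The counts were also concentrated in few loci. The single highest MERVL or MT2 locus, an MT2B1 LTR in the 5′ UTR of Gimap3, held 12.4% of the MERVL and MT2 counts. The top 10 held 26.2% and the top 100 held 61.2%. Among the older loci the top 10 held 14.2% and the top 100 held 43.2%. Of the ERVL loci with a count, 1320 (8.11%) overlapped another repeat with a count, and those held 12.1% of the ERVL counts. Loci named below that did so include those of H2-Q7, Ggta1, Ikbke, Stat5a and Shmt1, the LTR near Fyb and the joined element near Slamf1. The sources used here do not say how reads at such overlaps were assigned.

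Gene-table totals ran from 16810375 to 19126498 counts per library and repeat-table totals from 1135872 to 1872809, of which ERVL loci made up 2.37% to 2.79% of the LINE, SINE, LTR and DNA counts. Ddx55 itself lay at 45.3 to 68.7 CPM (counts per 1e6 gene counts of the library, with edgeR's TMM factors) in the 6 WT libraries and at 14.4 to 19.5 in the 6 KO libraries. Markers of T cells were high in all libraries (summed CPM of 10 genes 3710 to 6471). Markers of other cell types mostly moved with the genotype, except that those of erythroid cells overlapped at 0 and 8 h. The 10 neutrophil and granulocyte progenitor genes summed to 55.8 and 12.99 CPM in WT and 509 and 509 in KO at 0 h, and to 0.592 and 0.433 in WT and 21.9 and 86.3 in KO at 24 h. The 8 basophil and mast cell genes summed to 36.1 and 13.1 in WT and 293 and 783 in KO at 0 h, and to 10.5 and 10.004 in WT and 178 and 646 in KO at 24 h. The 6 myeloid genes summed to 33.0 and 20.99 in WT and 94.2 and 33.1 in KO at 0 h, and to 14.7 and 11.5 against 30.6 and 27.5 at 24 h. The 6 genes of CD8 T and NK cells summed to 48.9 and 45.9 against 83.1 and 54.7 at 0 h, and to 25.7 and 21.04 against 106 and 53.0 at 24 h. For these 4 lists both KO libraries were above both WT libraries at 0, 8 and 24 h. The 6 B cell genes kept this order at low levels (4.19 and 3.91 in WT against 6.38 and 6.36 at 0 h). The 5 erythroid genes summed to 274 and 83.4 in WT and 189 and 94.3 in KO at 0 h. They were at 116 and 29.3 against 50.9 and 52.8 at 8 h, and at 12.4 and 3.68 against 17.6 and 19.4 at 24 h. A total of 7 of the 10 neutrophil genes passed the test at 0 h, where 5.7% of all 15663 tested genes were called, and 4 at 24 h, where 38.6% were called. Of the 8 basophil genes 1 passed at 0 h and 7 at 24 h, of the 6 myeloid genes 1 and 1, and of the 6 CD8 T and NK genes 1 and 2, all higher in KO. No gene of these lists was at 0 in all libraries. These bulk samples cannot tell fewer cells of a type from less RNA per cell, and the part of these cells in the ERVL results below was not tested.

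Neither summed ERVL level passed the test between KO and WT at any of the 3 times, although both KO libraries lay above both WT libraries at 24 h. Both sums fell with stimulation in WT cells when scaled to gene counts. The MERVL and MT2 sum was 1346.5 and 1367 CPM in WT and 1125 and 1291 in KO at 0 h. At 8 h WT stood at 942.1 and 969.7 and KO at 936.1 and 1042, and at 24 h WT at 788.3 and 750.6 against 852.8 and 873.0. The KO libraries lay below the WT libraries at 0 h, overlapped them at 8 h and lay above them at 24 h. The differences were -0.17 ± 0.10 (log2, SE; edgeR quasi-likelihood test, adjusted p = 0.368), 0.05 ± 0.10 (adjusted p = 0.914) and 0.17 ± 0.10 (adjusted p = 0.166). Of the 41 repeat families tested, 2.44%, 2.44% and 4.88% were called at an adjusted p under 0.05. The older sum was 1364 and 1325 CPM in WT and 1179.6 and 1308 in KO at 0 h. The 8 h values were 953.3 and 974.9 in WT and 961.1 and 1136.5 in KO, and those of 24 h 807.0 and 752.3 against 898.6 and 977.3. Its order at the 3 times was again KO below WT, overlapping, and KO above WT, with differences of -0.11 ± 0.10, 0.12 ± 0.10 and 0.27 ± 0.10 (adjusted p = 0.379, 0.767 and 0.0606). The 24 h difference of the older sum passed the threshold without either KO 0 h library (adjusted p = 0.0152 and 0.0156) or either KO 8 h library (0.0147 and 0.0147). It also passed without exonic loci (0.50, 0.039), with only loci outside genes (0.59, 0.00031) and with only the libraries compared (0.27, 0.0017), and the MERVL and MT2 sum passed in the latter 2 settings (0.41, 0.0085, and 0.17, 0.014). With repeat-table totals both 24 h differences were negative (-0.029 and -0.13). Over the 3 times together, an exact permutation test of genotype within time (all arrangements, two-sided, smallest possible p 0.00926, 2 sums tested) gave a mean KO minus WT difference of 0.01 for MERVL and MT2 (p = 0.824, adjusted p = 0.824) and 0.09 for the older sum (p = 0.25, adjusted p = 0.5). These means average differences of opposite sign at 0 and 24 h. The permutation test takes the libraries of the 3 times as independent of each other, which the labels do not settle.

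**Figure D1:**
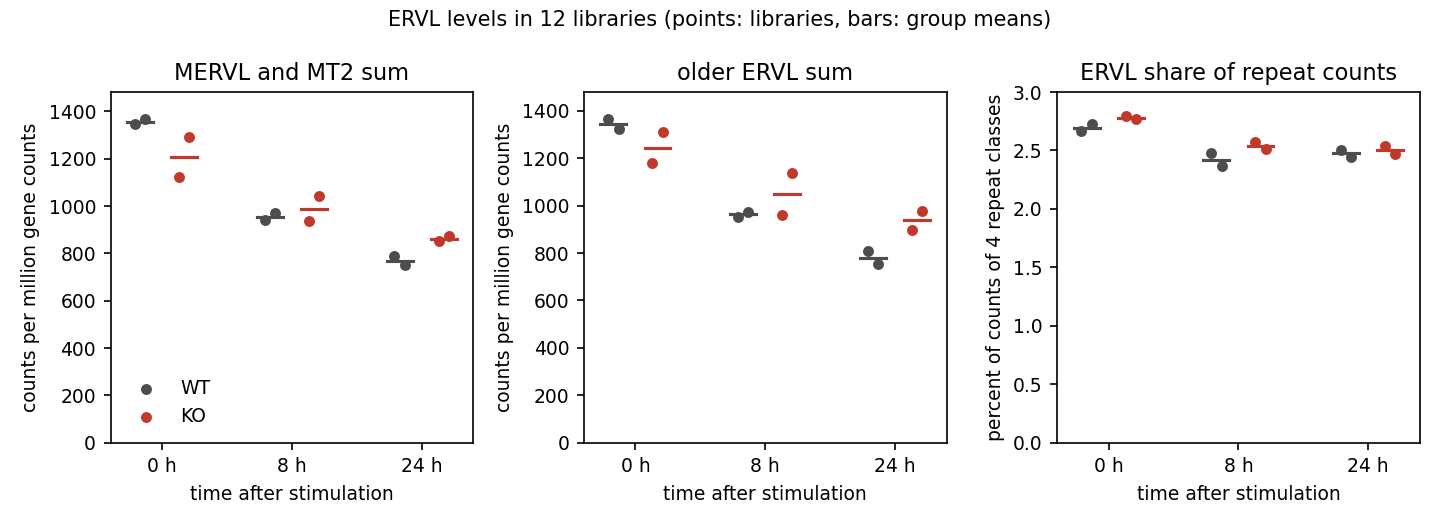
ERVL sums in CPM, and the ERVL share of LINE, SINE, LTR and DNA counts in percent, against hours after stimulation; each point is a library and each bar the mean of 2. Both sums drop from 0 to 24 h while the share stays between 2.37% and 2.79%.

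In WT cells the MERVL and MT2 sum fell by 0.51 ± 0.10 on the log2 scale at 8 h (adjusted p = 4.0e-06) and by 0.82 ± 0.10 at 24 h (3.8e-14). The older sum fell by 0.48 ± 0.10 (1.1e-05) and 0.79 ± 0.10 (2.3e-13). Of the 41 families, 63.4% were called at 8 h and 80.5% at 24 h, with medians over all families of -0.36 and -0.66. The repeat total per 1e6 gene counts, without TMM factors, was 102532 and 97314 in WT at 0 h, 74595 and 80929 at 8 h and 62987 and 60318 at 24 h. Scaled to repeat-table totals, which shifted the median difference by 0.44 at 8 h and 0.73 at 24 h, neither ERVL sum changed past the threshold (MERVL and MT2 -0.070 and -0.093, older -0.044 and -0.062). The KO effect on the older sum moved upward from 0 to 24 h by 0.38 ± 0.14 (adjusted p = 0.0365). Of all families 24.4% were called, with a median of 0.36. With repeat totals the older value had the opposite sign (-0.090, adjusted p = 0.485). That call was lost without either WT 0 h library, either WT 8 h library, WT 24 h replicate 2, KO 0 h replicate 1 or either KO 24 h library (adjusted p 0.055 to 0.188). The same measure for MERVL and MT2 was 0.33 ± 0.14 (adjusted p = 0.054), and -0.13 with repeat totals.

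Among the MERVL and MT2 subfamilies, MT2B1 and MT2_Mm were higher in KO than in WT at 24 h, and the other 13 tested did not pass. Over all ERVL subfamilies, 17 of 106 were called at 24 h, 15 higher and 2 lower, where 15.9% of all 1180 repeat subfamilies were called (13.6% higher, 2.29% lower), a share near the ERVL one. Only 1 of 106 was called at 0 h (0.593% of all subfamilies) and 0 at 8 h by edgeR (0.254%; 1 with an unadjusted p under 0.05). The median ERVL difference at 0, 8 and 24 h was -0.17, 0.13 and 0.35, beside -0.17, 0.13 and 0.34 for all subfamilies. With repeat-table totals, which shifted the 24 h median by -0.30, the split at 24 h was 4 higher and 5 lower. A test of the difference between times, KO relative to WT at 24 h against the same at 0 h, called 8 of 106, 7 higher and 1 lower (8.73% of all subfamilies), or 3 and 3 with repeat totals. For 8 h against 0 h it called 0 by edgeR, with 4 at an unadjusted p under 0.05 (0% of all subfamilies and 0% of families). The count of 17 became 4 and 2 without WT 24 h replicate 1 or 2, 9 and 3 without KO 24 h replicate 1 or 2, 11 without either WT 0 h library and 10 without either WT 8 h library.

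MT2B1, the LTR subfamily with 5448 loci, was at 312.2 and 329.4 CPM in WT and 257.0 and 315.0 in KO at 0 h. By 8 h it was at 161.9 and 168.0 in WT and 171.0 and 189.4 in KO, and by 24 h at 89.8 and 92.8 against 128.9 and 140.2. The genotypes overlapped at 0 h, and both KO libraries were above both WT libraries at 8 and 24 h. The 24 h difference was 0.56 ± 0.12 (adjusted p = 0.0096), and the KO effect moved from 0 to 24 h by 0.72 ± 0.17 (adjusted p = 0.022). That shift was not called without WT 0 h replicate 1 or 2, WT 24 h replicate 1 or 2, KO 0 h replicate 1 or KO 24 h replicate 2 (adjusted p 0.066 to 0.11). A single locus, the Gimap3 LTR described below, held 64.7% of MT2B1 counts, and without it the 24 h difference was 0.31 (adjusted p = 0.16). With repeat totals it was 0.26 (adjusted p = 0.075), and the call was lost without WT 24 h replicate 1 (0.073) or 2 (0.064) or KO 24 h replicate 2 (0.10).

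MT2_Mm, the LTR of MERVL, was at 24.0 and 19.97 CPM in WT and 18.2 and 21.4 in KO at 0 h. WT was at 20.5 and 19.4 at 8 h beside 19.2 and 19.4 for KO, and at 24 h at 18.9 and 17.0 against 27.0 and 30.9. It stayed between 17.0 and 24.0 in all WT libraries and was above that range in both KO libraries at 24 h. The 24 h difference was 0.69 ± 0.16 (adjusted p = 0.011), and the KO difference shifted between 0 and 24 h by 0.84 ± 0.22 (adjusted p = 0.032). This call was lost without any 1 of the 6 WT libraries, KO 0 h replicate 1 or KO 24 h replicate 2 (adjusted p 0.055 to 0.15). Its top locus, the element in an intron of Gm26561 described below, held 20.9% of counts. Without it the 24 h difference was 0.38 (adjusted p = 0.15). With repeat totals it was 0.40 (0.060), without WT 24 h replicate 2 it was 0.62 (0.11) and without KO 24 h replicate 2 0.59 (0.13). MERVL-int, the internal part outside joined elements, was at 12.5 and 11.2 CPM in WT and 16.4 and 15.998 in KO at 24 h, a difference of 0.45 ± 0.19 (adjusted p = 0.10). Without its top locus, which held 34.9% of its counts, it was 0.71 (adjusted p = 0.036). MERVL_2A-int differed by 0.33 ± 0.13 (adjusted p = 0.10), and by 0.71 (0.023) when its exonic loci were left out. The 4 subfamilies with the most counts beside MT2B1 differed by less at 24 h: MT2B2 by -0.01 (adjusted p = 0.92), MT2A by 0.06 (0.77), MT2B by 0.03 (0.89) and MERVL_2A-int as above.

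**Figure D2:**
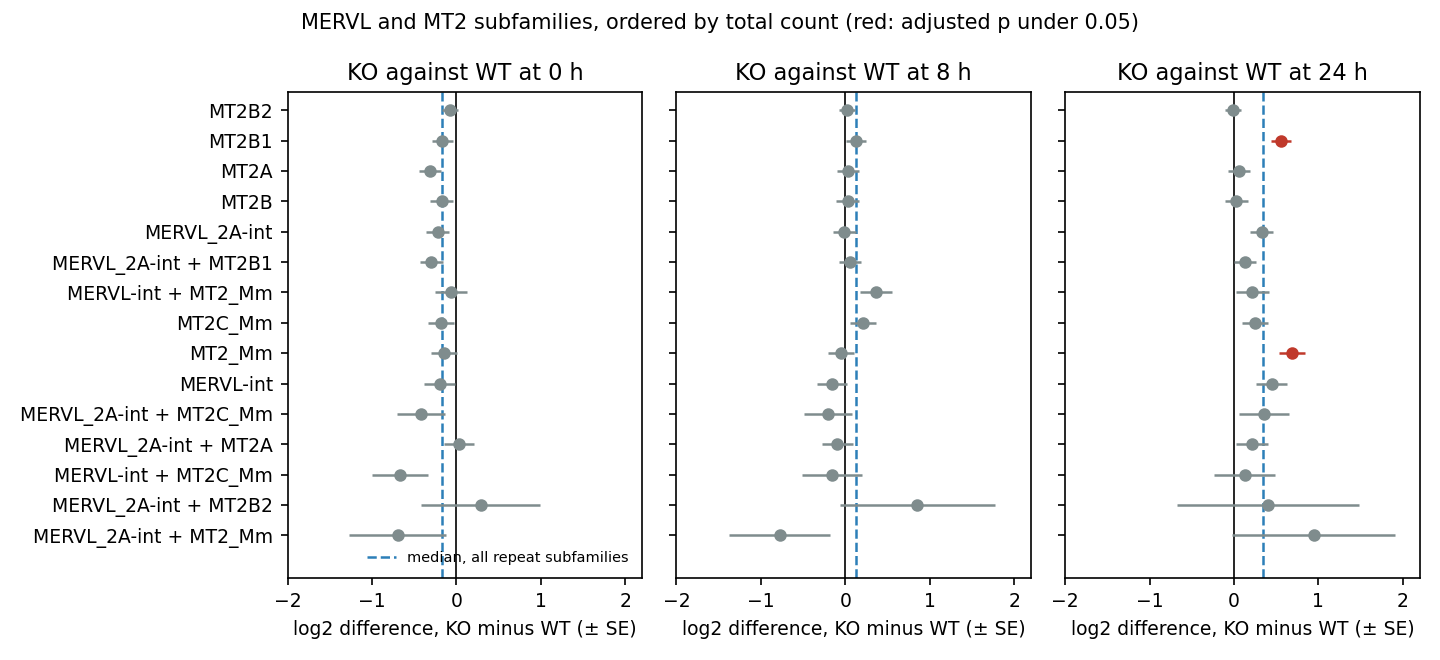
KO minus WT differences (log2, points with SE bars) of the 15 tested MERVL and MT2 subfamilies at 0, 8 and 24 h, ordered by total count, with a plus sign for joined elements; the dashed line is the median of all 1180 repeat subfamilies. Only MT2B1 and MT2_Mm at 24 h are drawn in red, for an adjusted p under 0.05.

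Elements that still join MERVL-int to MT2_Mm were counted widely but at low levels. Of 560 such loci of 5 kb or longer (median length 6398 bp), 480 had a count, with 5664 counts in all. Their summed level was 32.3 and 34.6 CPM in WT and 24.3 and 39.9 in KO at 0 h. At 8 h WT stood at 23.7 and 27.6 and KO at 29.3 and 35.1, and at 24 h WT at 15.8 and 14.2 against 17.5 and 19.7. Per megabase of annotated sequence, the mean level was 7.48 CPM for these long elements, 11.04 for joined elements under 5 kb, 24.0 for MERVL-int alone and 35.2 for MT2_Mm alone. All MERVL-int elements joined to MT2_Mm, taken as 1 subfamily, differed between KO and WT by -0.07, 0.36 ± 0.19 and 0.22 ± 0.20 at 0, 8 and 24 h (adjusted p = 0.9, 0.94 and 0.46). The 24 h value was -0.08 with repeat totals. In WT these elements fell by 1.14 ± 0.20 from 0 to 24 h (adjusted p = 0.00014).

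Scaled to gene counts, 6 of 15 MERVL and MT2 subfamilies fell in stimulated WT cells by 8 h and 12 of 15 by 24 h, with none higher. Over all ERVL subfamilies, 6 rose and 37 fell at 8 h and 4 rose and 64 fell at 24 h. Of all repeat subfamilies 43.1% were called at 8 h (5.59% higher, 37.5% lower) and 62.5% at 24 h (4.92% higher, 57.5% lower). The shares of ERVL subfamilies called, 40.6% and 64.2%, were near these. With repeat totals the ERVL splits were 12 higher and 16 lower, and 16 higher and 16 lower. The 8 h count of 43 was 26 without either WT 8 h library, and the 24 h count of 68 was 42 without WT 24 h replicate 2. The median ERVL change at 24 h was -0.86 and that of all subfamilies -0.78. MT2B1 fell by 0.96 ± 0.12 at 8 h (adjusted p = 1.7e-05) and by 1.81 ± 0.13 at 24 h (1.5e-08), and MT2C_Mm by 1.01 ± 0.16 (1e-04) and 1.39 ± 0.16 (2.1e-06). MERVL_2A-int fell by 0.48 ± 0.13 (0.0091) and 0.89 ± 0.13 (4e-05). MT2B2 fell by 0.38 ± 0.09 (0.0044) and 0.46 ± 0.09 (0.00058) and MT2A by 0.40 ± 0.13 (0.022) and 0.65 ± 0.13 (0.00061). The 8 h calls of MERVL_2A-int and MT2A were each lost without any 1 of 4 libraries, and that of MT2B2 without 1 library. With repeat totals MT2B2 was at 0.057 and 0.26 and MT2A at 0.033 and 0.077, the opposite sign. MT2_Mm and MT2B did not pass (-0.29, adjusted p = 0.12, and -0.31, adjusted p = 0.055, at 24 h), and with repeat totals they were higher (0.43, adjusted p = 0.015, and 0.41, adjusted p = 0.002).

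Of the older subfamilies, 13 were higher and 2 lower in KO at 24 h. MER74B was at 4.90 and 4.93 CPM in WT and 3.30 and 3.81 in KO at 0 h. The 8 h values were 14.6 and 12.002 in WT and 15.6 and 16.9 in KO, and those of 24 h 5.49 and 4.70 against 11.7 and 12.3. WT was high at 8 h alone and KO at both 8 and 24 h, and the genotypes did not overlap at any time, with KO the lower at 0 h. The 24 h comparison gave a difference of 1.24 ± 0.19 (adjusted p = 0.00058). The KO difference shifted between 0 and 24 h by 1.70 ± 0.28 (adjusted p = 0.0016). That 24 h difference was 0.94 (0.001) with repeat totals and 0.92 (0.032) without its top locus, an element in an intron of Gramd1b. HERV16-int differed by 1.16 ± 0.28 (adjusted p = 0.014), from 1.45 and 1.41 CPM in WT to 3.102 and 3.29 in KO. The call was lost without WT 24 h replicate 1 (0.078) or 2 (0.11) or KO 24 h replicate 2 (0.10). ERVL-B4-int differed by 0.76 ± 0.23 (0.037), LTR16E1 by 0.89 ± 0.26 (0.035) and RLTR28B by 0.74 ± 0.19 (0.023), and all 3 lost the call with repeat totals (0.47, 0.59 and 0.44; adjusted p = 0.060, 0.15 and 0.067). ERVL-B4-int lost it without any of 8 single libraries, LTR16E1 without any of 6, and RLTR28B without WT 24 h replicate 1 or 2 or KO 24 h replicate 2.

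Each of the 2 subfamilies that were lower rested on 1 locus. LTR41B was at 14.4 and 12.3 CPM in WT and 3.48 and 4.85 in KO at 24 h, a difference of -1.68 ± 0.26 (adjusted p = 0.00058), and -0.04 (0.96) without its top locus, which lies in the 3′ UTR of Dhcr7 and held 85.2% of its counts. LTR33A differed by -0.76 ± 0.21 (0.029), and by 0.17 (0.68) without its top locus, which held 34.7%. The LTR33A call was lost without any 1 of 4 libraries. In WT cells at 8 h, LTR52-int (1.54), MER74B (1.44), MLT2F (1.15) and LTR16A (0.76) were called higher. MLT2F was at -0.35 and LTR16A at -1.35 without their top loci, and the top locus held 100% of LTR52-int. LTR101_Mam was called lower (-1.43 at 8 h and -1.78 at 24 h), but was at 0.058 and 0.53 without its top locus, the Ms4a6b element. ERVL-E-int (-1.45), ERVL-B4-int (-1.58) and HERV16-int (-1.74) were among the older subfamilies that fell most by 24 h. LTR16C changed by -1.63 and LTR41B was higher by 0.60 at 24 h, or -0.65 without its Dhcr7 locus. This LTR41B call was lost without any 1 of 4 libraries.

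At single loci, ERVL differences between KO and WT at 24 h lay close to those of the genes that hold the elements in their exons, and less close for introns. Of 978 loci, 37 were higher and 27 lower in KO at 24 h, where 3.95% of all 37251 tested repeat loci were called (2.44% higher, 1.51% lower). The split was 18 higher and 12 lower for MERVL and MT2 loci, 19 and 15 for older loci, and 14 and 37 over all ERVL loci with repeat totals. The shift of the KO difference between 0 and 24 h was called at 21 ERVL loci, 9 higher and 12 lower (1.41% of all loci), or 3 and 18 with repeat totals, and that between 0 and 8 h at 0 (0% of all loci). The count of 64 was 40 without either WT 24 h library, and 28 and 38 without KO 24 h replicate 1 or 2. Exonic loci were called at 38 of 351 (10.8%; 17 higher, 21 lower), intronic loci at 21 of 507 (4.14%; 18 higher, 3 lower) and loci outside genes at 5 of 120 (4.17%; 2 higher, 3 lower). The median difference was 0.09 for exonic and 0.41 for intronic loci. For 31 of the 32 called exonic loci with a tested host gene, the gene was called in the same direction, and the exception was the MERVL_2A-int locus of Esyt2. Reads in an exon may be counted both to the locus and to its gene, so this agreement is not independent. For the 20 called intronic loci the gene was called the same way for 10, the opposite way for 2 (Tk2 and Bcat2) and not called for 8. Of the host genes of all tested loci, 49.03% (exonic) and 47.1% (intronic) were called. Across genes, which are not independent replicates and share their libraries with the loci, the locus and host differences had a Pearson r of 0.76 and a Spearman rho of 0.70 over 308 exonic loci, and 0.49 and 0.40 over 488 intronic loci.

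**Figure D3:**
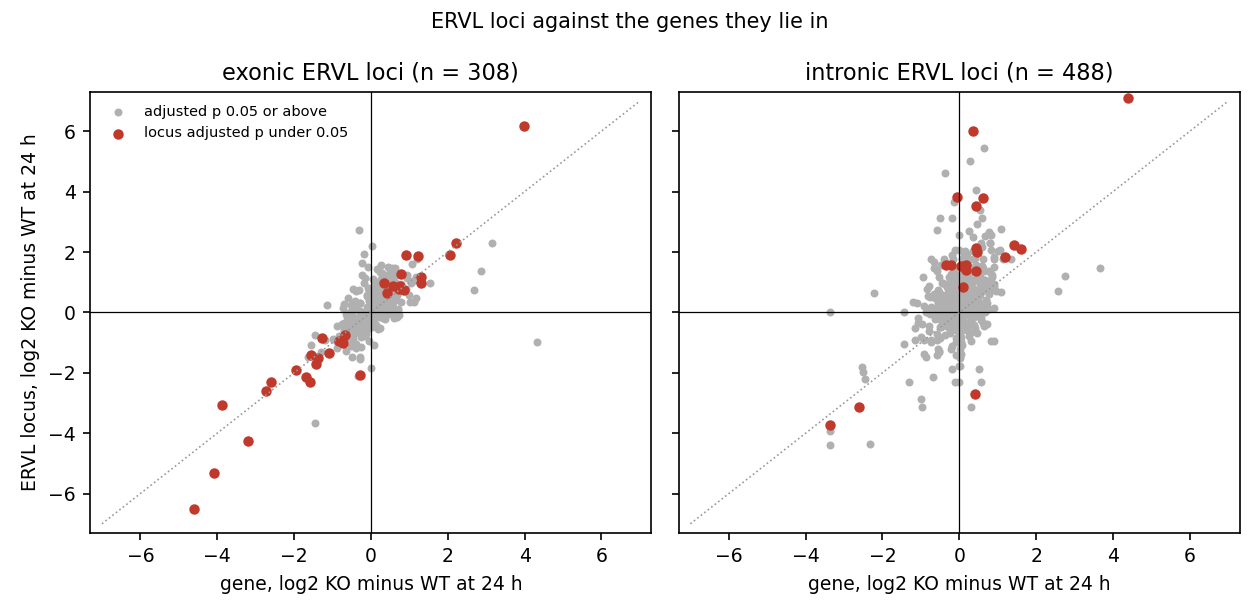
Difference between KO and WT at 24 h (log2) of each tested ERVL locus against that of its host gene, for 308 exonic and 488 intronic loci; red points are loci with an adjusted p under 0.05 and the dotted line marks equal values. Exonic loci lie near the line, and intronic loci spread up and down around gene values close to 0.

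The loci raised most in KO relative to WT at 24 h included an MT2B element of Ggta1, an MT2B element of Ikbke and a MERVL-int element of Stat5a. This holds among loci with a mean count of 20 or more. The Ggta1 element (chr2:35423159-35423548, 390 bp, 5′ UTR and first coding exon) was at 1.30 and 1.62 CPM in WT and 3.14 and 2.004 in KO at 0 h. By 8 h it was at 1.21 and 0.995 in WT and 2.99 and 4.14 in KO, and by 24 h at 1.72 and 2.05 against 8.22 and 6.09. Every KO library was above both WT libraries of its time, with differences of 1.68 ± 0.34 at 8 h (adjusted p = 0.0064) and 1.92 ± 0.31 at 24 h (1.9e-05). Ggta1 itself differed by 1.48 and 2.05. The 8 h call was lost without WT 8 h replicate 2 or KO 8 h replicate 2. The Ikbke element lies in an intron (chr1:131267698-131267857) of this gene for a kinase of innate immune signalling. It was at 3.07 and 2.47 CPM in WT and 1.76 and 3.51 in KO at 0 h, and at 0.386 and 1.05 against 1.02 and 1.65 at 8 h. At 24 h it was at 0.969 and 0.919 in WT and 3.81 and 5.12 in KO. WT thus fell from 0 h, and the 24 h difference was 2.23 ± 0.39 (adjusted p = 9.0e-05), with 1.43 for the gene. It overlaps a B1_Mur2 element that held 162 counts beside its own 468.

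The MERVL-int element (chr11:100871664-100872938, 1275 bp) in an intron of Stat5a, a transcription factor of cytokine signalling, was at 0.767 and 0.481 CPM in WT and 0.440 and 0.451 in KO at 0 h. WT was at 0.826 and 0.995 at 8 h beside 1.18 and 1.32 for KO, and at 24 h at 0.861 and 0.919 against 4.46 and 3.18. It was flat in WT and high only in the KO libraries of 24 h among these 12 libraries. The difference at 24 h was 2.09 ± 0.41 (adjusted p = 0.00049), with 1.59 for Stat5a. An MT2B1 LTR 83 bp from Slamf1, a signalling receptor gene of lymphocytes (chr1:171801267-171801796), was at 0.472 and 0.601 CPM in WT and 0.660 and 0.701 in KO at 0 h. At 8 h WT stood at 7.60 and 8.31 and KO at 9.14 and 9.26, and at 24 h WT at 1.08 and 1.41 against 2.72 and 2.80. Both genotypes peaked at 8 h, and KO lay above WT at each time. In WT it rose by 3.87 ± 0.34 at 8 h (adjusted p = 2.3e-13). The KO difference at 24 h was 1.15 ± 0.31 (0.018), a call lost without any 1 of the 4 libraries of 24 h. Whether the reads at this LTR come from transcripts of Slamf1 was not tested. MER74B in an intron of Gramd1b, a lipid transfer protein gene (chr9:40313413-40313711), was at 2.31 and 2.05 CPM in WT and 7.24 and 5.76 in KO at 24 h, a difference of 1.57 ± 0.29 (adjusted p = 0.00017). Gramd1b itself differed by 0.18 (0.26). An MT2_Mm LTR in an intron of Gm26561 (chr17:70963413-70963658), named after its values were seen, was at 6.03 and 5.35 CPM in WT and 12.4 and 13.6 in KO at 24 h (1.19 ± 0.26, adjusted p = 0.0023). It is the top locus of MT2_Mm, without which the subfamily's 24 h difference given above did not pass.

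Fv1, whose MERVL_2A-int stretch is printed above, was also chosen after its values were seen. Its locus was at 8.20 and 8.42 CPM in WT and 4.84 and 8.37 in KO at 0 h. The 8 h values were 8.21 and 7.79 in WT and 7.95 and 6.56 in KO, and those of 24 h 3.07 and 2.60 against 4.52 and 5.76. The genotypes overlapped at 0 and 8 h, and at 24 h both KO libraries were above WT, with a difference of 0.86 ± 0.26 (adjusted p = 0.045) for the locus and 0.76 (0.027) for the gene. The RMER15 element that forms an exon of the noncoding 9330175E14Rik (chr8:94432295-94432513) differed by 1.89 ± 0.44 at 24 h (adjusted p = 0.0053), lost without KO 24 h replicate 1, and its gene by 0.92.

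Of the 27 loci lower in KO at 24 h, 21 lay in exons, and those named here lay in genes that were lower too, apart from Esyt2 and 1 locus outside genes. MT2B in Ncaph, a condensin subunit gene (chr2:127117308-127117540, coding exon and 3′ UTR), was at 0.354 and 0.1203 CPM in WT and 1.16 and 0.501 in KO at 0 h. By 8 h it was at 0.441 and 0.468 in WT and 0.451 and 0.276 in KO, and by 24 h at 5.71 and 4.81 against 0.871 and 0.862. It was high only in the WT libraries of 24 h. The KO difference at 24 h was -2.59 ± 0.42 (adjusted p = 2.1e-05) and that of Ncaph -2.74. In WT the locus rose by 4.43 from 0 to 24 h and Ncaph by 4.65. LTR41B in the 3′ UTR of Dhcr7, the last enzyme of cholesterol synthesis (chr7:143847934-143848438), was at 7.55 and 7.46 CPM in WT and 9.46 and 7.11 in KO at 0 h. WT was at 3.14 and 2.11 at 8 h beside 2.54 and 3.53 for KO, and at 24 h at 13.3 and 11.7 against 2.78 and 3.93. The genotypes overlapped at 0 and 8 h but not at 24 h, where they differed by -1.90 ± 0.25 (adjusted p = 3.3e-07), with -1.96 for Dhcr7. MT2B2 in the 5′ UTR of Shmt1, a folate-cycle enzyme, was at 9.15 and 8.11 CPM in WT and 3.102 and 3.39 in KO at 24 h (-1.41, adjusted p = 0.0002; Shmt1 -1.57). It overlaps a B1_Mus1 element that held 372 counts beside its own 1128.

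The RLTR35B_MM element in the 3′ UTR of Slamf6, a lymphocyte receptor gene, was lower (-1.70, adjusted p = 0.0024), with -1.42 for the gene. That call was lost without 1 of the libraries. The 4922 bp MERVL_2A-int locus in the 3′ UTR of Esyt2, a lipid transfer protein gene (chr12:116386027-116390948), stood apart from its gene. It was at 5.61 and 4.93 CPM in WT and 4.13 and 4.11 in KO at 0 h. At 8 h WT stood at 1.27 and 1.46 and KO at 1.41 and 0.772, and at 24 h WT at 1.88 and 1.35 against 0.272 and 0.485. The KO libraries were below WT at 0 and 24 h and overlapped at 8 h, with a 24 h difference of -2.07 ± 0.44 (adjusted p = 0.0017) beside -0.27 (0.33) for Esyt2. Without KO 24 h replicate 1 it was -1.72 (0.088). An MT2B2 LTR 28832 bp from Rbm38 (chr2:173063566-173064146) was at 2.74 and 4.06 CPM in WT and 0.980 and 1.51 in KO at 24 h (-1.44, adjusted p = 0.0043), a call lost without WT 24 h replicate 2 or KO 24 h replicate 1. The MT2B element with the Clspn exon printed above, which has a lower mean count and was chosen after its values were seen, had 105 and 101 counts in WT and 1 and 1 in KO at 24 h, with Clspn at -4.61.

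**Figure D4:**
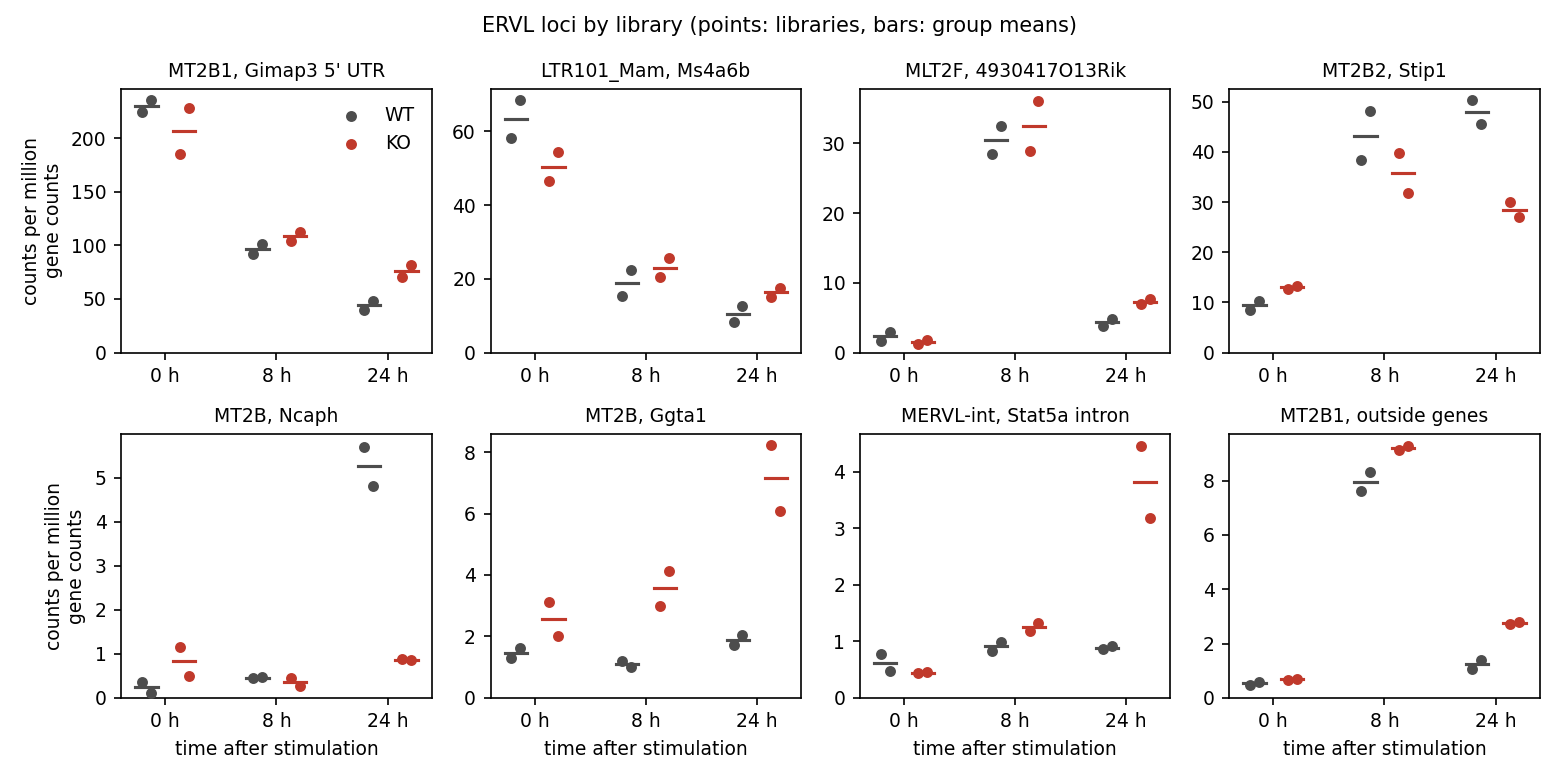
Level of 8 ERVL loci in CPM against hours after stimulation, with a point for each library and a bar for each mean of 2. The Ncaph element is high in WT at 24 h (5.71 and 4.81) and not in KO, and the Ggta1 and Stat5a elements are high in KO at 24 h.

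At 0 h, 8 ERVL loci were called, 7 higher and 1 lower in KO (0.258% of all loci), and at 8 h 2, both higher (0.231%). The 0 h count was 4 without KO 0 h replicate 1 and 13 without KO 0 h replicate 2, and the 8 h count 4 without either KO 0 h library and 1 without KO 8 h replicate 2. MER21C in the 3′ UTR of Oas2, an interferon-induced antiviral enzyme (chr5:120730355-120730665), was at 8.20 and 8.90 CPM in WT and 24.1 and 23.8 in KO at 0 h, a difference of 1.48 ± 0.25 (adjusted p = 0.00022) with 1.31 for Oas2. ERV3-16A3_I-int in the 3′ UTR of Plek, a protein kinase C substrate gene of blood cells, differed by 1.47 (adjusted p = 0.011; Plek 1.88), lost without WT 0 h replicate 1 or KO 0 h replicate 1. RMER10A outside genes (chr11:58191702-58192067, 2690 bp from Gm12250) was at 3.60 and 5.23 CPM in WT and 8.25 and 10.8 in KO (1.11, adjusted p = 0.026), lost without WT 0 h replicate 1 or KO 0 h replicate 2. The locus that was lower, MT2A in the 5′ UTR of Gm14085 (chr2:122485763-122486162), was at 17.0 and 21.1 CPM in WT and 5.78 and 10.3 in KO at 0 h (-1.24, adjusted p = 0.0099) and at 1.45 and 1.30 against 0.490 and 0.593 at 24 h (-1.33, 0.035). The 0 h call was lost without WT 0 h replicate 2 or KO 0 h replicate 1, and the 24 h call without WT 24 h replicate 1 or either KO 24 h library.

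The 1 ERVL locus called in KO against WT at all 3 times was an LTR33 element of 366 bp in an intron of Cd4, the coreceptor gene that defines these cells (chr6:124884076-124884441, 3780 bp from the gene's start). Its counts were 19 and 10 in WT and 280 and 381 in KO at 0 h. The 8 h values were 1 and 0 in WT and 34 and 67 in KO, and those of 24 h 6 and 4 against 59 and 86. Every KO library was above every WT library of its time. The differences were 4.31 ± 0.34 at 0 h (adjusted p = 3.7e-13) and 3.83 ± 0.41 at 24 h (2.6e-09), and the 8 h difference, against 1 WT count in all, had an adjusted p of 1.7e-09. Cd4 itself differed by 0.03, -0.01 and -0.05, with 1000.3 and 1048 CPM in WT and 1046 and 1043 in KO at 0 h. The repeats next to the element had the same pattern. Of 39 repeat loci with counts in Cd4, the 13 that start between 794 and 8087 bp from the gene's start had more counts in KO than in WT, such as PB1 at 794 bp (307 against 5), Lx8 at 5688 bp (890 against 22) and PB1D10 at 8087 bp (457 against 4). Their counts summed to 5454 in KO and 157 in WT, and the ratio of KO to WT ran from 6 to 114 among them. The 26 loci from 9332 bp on summed to 7443 in KO and 7549 in WT, with 17 higher and 9 lower in KO, a median ratio of 1.11 and ratios from 0 to 3. Among them were B1_Mur4 at 9332 bp (111 against 89), Lx5 at 18389 bp (422 against 505) and the exonic RSINE1 at 22659 bp (5857 against 5890). The lowest ratio was that of another ERVL locus, MT2B2 at 14520 bp, with 0 counts in KO and 2 in WT, and the highest that of B3 at 11016 bp, with 12 against 4. Whether the counts of the first stretch, the LTR33 element included, come from the gene's own copy was not tested, and the labels do not say how the knockout was made.

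**Figure D5:**
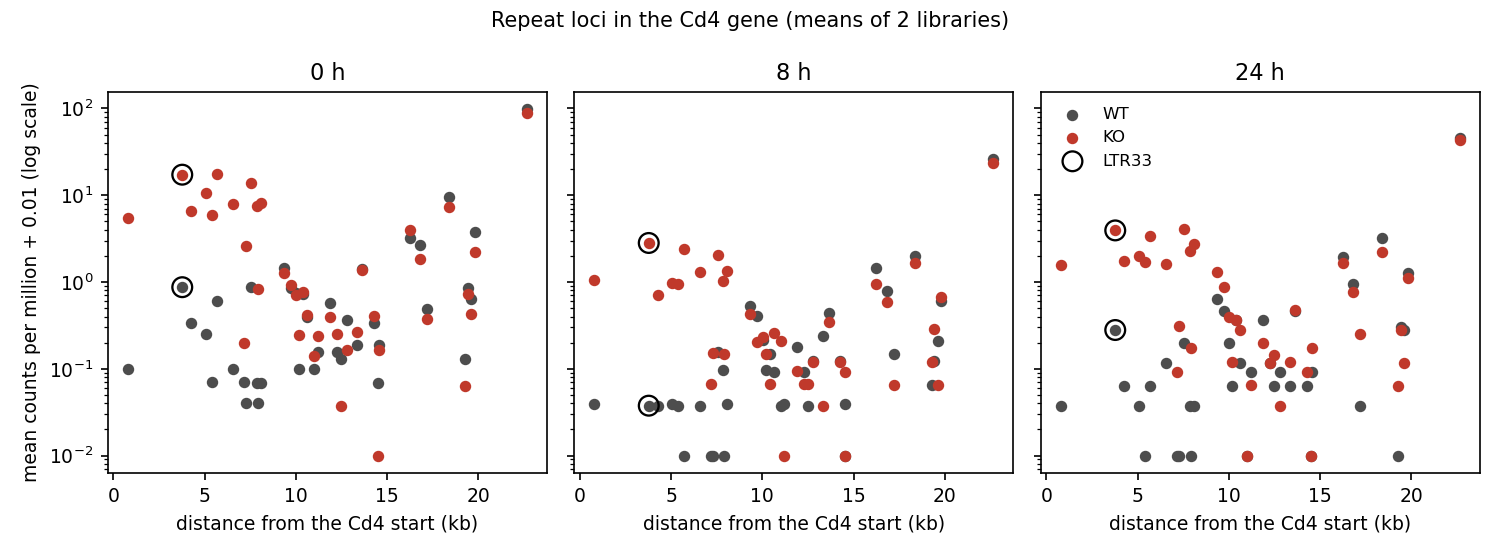
Level of 39 repeat loci of the Cd4 gene (mean CPM of 2 libraries plus 0.01, log axis) against distance from the gene's start in kilobases, at 0, 8 and 24 h; the circles mark the ERVL element LTR33. KO points lie above WT points up to 8087 bp, and from 9332 bp on the points of both genotypes intermix.

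In WT cells, 96 ERVL loci rose and 238 fell by 8 h, and 92 rose and 351 fell by 24 h. Of all repeat loci 31.7% were called at 8 h (9.57% higher, 22.2% lower) and 39.7% at 24 h (7.32% higher, 32.4% lower). With repeat totals the ERVL splits were 159 higher and 153 lower, and 156 higher and 174 lower. The median ERVL change was -0.47 and -0.94, beside -0.45 and -0.93 for all repeat loci. At 24 h the median was -0.59 for exonic, -1.19 for intronic and -1.22 for loci outside genes. Of the 108 exonic loci called at 8 h with a tested host gene, 104 had a gene called in the same direction, 0 the opposite and 4 not called. Of the host genes of all tested exonic loci, 77.9% were called in this comparison. For 144 exonic loci called at 24 h, the numbers were 133, 3 and 8 (79.5% of host genes called). For intronic loci they were 129, 8 and 12 of 149 at 8 h (80.3%), and 172, 18 and 22 of 212 at 24 h (85.0%). For exonic loci the same reads may again be counted to both locus and gene. RMER15 in a noncoding exon of Il2ra, the inducible interleukin-2 receptor chain (sequence above), had 0 and 0 counts in WT at 0 h, 32 and 32 at 8 h and 31 and 23 at 24 h, with 0 and 1, 67 and 54, and 57 and 50 in KO. Il2ra rose by 8.00 in WT at 8 h. LTR33 in an intron of the antisense gene A930007I19Rik (chr19:29474789-29475131) went from 0 and 1 counts to 74 and 67, and then 65 and 54. LTR84a, 847 bp from Mir146, a microRNA of immune responses, rose by 4.66 at 8 h, and MERVL_2A-int joined to MT2B1, 2895 bp from Slamf1, by 3.40. MER21-int in an intron of Gramd1b rose by 3.91. The MLT2F exon of 4930417O13Rik printed above was at 1.71 and 3.01 CPM in WT at 0 h, 28.5 and 32.6 at 8 h and 3.77 and 4.87 at 24 h, with 1.21 and 1.75, 28.9 and 36.1, and 6.91 and 7.65 in KO. It peaked at 8 h in both genotypes (WT 3.69 at 8 h, adjusted p = 2.1e-17), and KO was higher at 24 h by 0.75 (0.041), with 0.86 for the gene. That 24 h call was lost without any 1 of 3 libraries.

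Among loci that fell by 8 h, LTR16C in the 3′ UTR of Pglyrp2 changed by -4.65, MER21C of Oas2 by -4.41 and MT2B1 in the 5′ UTR of BC147527 by -4.12. MERVL_2A-int in the 5′ UTR of Slc28a2 changed by -3.81, with -2.73 for Slc28a2. Outside genes, an MT2B2 LTR 1684 bp from Fyb, an adaptor gene of T cell receptor signalling, changed by -3.49 and an MT2C_Mm LTR (chr15:60109389-60109835) by -3.14. The LTR near Fyb overlaps a B1_Mur3 element that held 155 counts beside its own 306. By 24 h, LTR33 on chromosome 3 (chr3:101245400-101245688) changed by -5.31 and MT2B1 in an intron of Ifi209, an interferon-inducible gene, by -4.76. RMER15-int, 2508 bp from the T cell adhesion gene Cd2, changed by -3.10. All of these were called at an adjusted p under 0.05.

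The loci with the highest levels were exonic. MT2B1 in the 5′ UTR of Gimap3, a GTPase gene of lymphocyte survival (chr6:48767387-48767862, 476 bp), was at 224.7 and 236.3 CPM in WT and 185.6 and 228.4 in KO at 0 h. By 8 h it was at 92.0 and 101.1 in WT and 104.5 and 112.8 in KO, and by 24 h at 40.1 and 48.0 against 70.2 and 81.3. It dropped at each time in both genotypes, overlapped between them at 0 h and was higher in both KO libraries at 8 and 24 h. The KO difference at 24 h was 0.78 ± 0.14 (adjusted p = 6.5e-05), with 0.73 (0.00015) for Gimap3, and 0.48 (0.21) with repeat totals. In WT it fell by 1.26 at 8 h and by 2.39 ± 0.14 at 24 h (2.6e-19), and Gimap3 by 1.31 and 2.46. LTR101_Mam in a retained intron of Ms4a6b, a membrane protein gene (chr19:11527457-11527883), fell from 58.3 and 68.5 CPM to 8.18 and 12.7 in WT at 24 h, and stood at 15.2 and 17.5 in KO (0.65, adjusted p = 0.048). MT2B2 of only 22 bp in a coding exon of Stip1, a co-chaperone gene (chr19:7028613-7028634), was at 8.44 and 10.3 CPM in WT and 12.7 and 13.2 in KO at 0 h. WT was at 38.3 and 48.1 at 8 h beside 39.7 and 31.8 for KO, and at 24 h at 50.4 and 45.6 against 30.0 and 27.0. KO was above WT at 0 h, overlapped it at 8 h and was below it at 24 h (-0.75 ± 0.17, adjusted p = 0.0032; Stip1 -0.67). In WT the locus rose by 2.35 and Stip1 by 2.12 from 0 to 24 h. MT2B2 in H2-Q7, a class Ib histocompatibility gene with near-identical relatives (chr17:35440876-35441170), was at 4.79 and 5.19 CPM in WT and 8.49 and 10.9 in KO at 24 h (0.96, adjusted p = 0.0039; gene 1.30). Because of those relatives and an overlapping B1_Mus1 element with 2455 counts its own 4442 counts are uncertain. The other loci of the top 10 lie in Grap2, Esyt1, Mob3a with Gm26541, Tmem173, Erap1 and Rbm28. RMER15 in the 3′ UTR of Grap2, an adaptor gene of T cell receptor signalling, changed by -2.87 in WT at 8 h with its gene at -2.82. The Rbm28 element printed above differed between KO and WT at 24 h by -0.28 (adjusted p = 0.52). The 24 h calls of the Ms4a6b and Stip1 elements were each lost without any 1 of 2 libraries, and that of H2-Q7 without 1 library.

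ERVL elements also hold annotated gene starts. Of 32851 RefSeq promoter windows (GRCm38.p6), 222, belonging to 214 genes, had their start inside an ERVL locus, 102 of them in MERVL or MT2 elements and 22 in MERVL-int, MT2_Mm or their joined form. Only 24 of these genes were expressed enough to be tested. In KO at 24 h 8 were higher and 3 lower, where 38.6% of all 15663 tested genes were called (17.9% higher, 20.7% lower). Zfp317, a zinc finger gene, differed by 1.03 ± 0.12 (adjusted p = 7.8e-06), Sgk1, a kinase gene, by 0.70 and Slc28a2, whose upstream MT2A stretch is printed above, by -0.88. In WT 7 rose and 9 fell by 24 h (66.6% of all genes called), among them Sgk1 (-5.22), Slc28a2 (-2.61), Fv1 (-1.46) and Tbc1d23 (-1.06). At 0 h 1 of the 24 was called, Slc28a2 at -0.44 (5.7% of all genes), and at 8 h 1, Aif1, higher (2.65%). The loci that hold these starts had 1371 counts over all libraries for Fv1, 243 for Slc28a2, 130 for Zfp317 and 102 for Tbc1d23. They had only 5 for Aif1 and 0 for Sgk1, so the Sgk1 values are not those of RNA counted at its ERVL element. From which start the RNA of each gene came was not tested.

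Of 48 genes listed as repressors of MERVL or general silencing factors, 46 were tested, and at 24 h 6 were higher and 28 lower in KO, with a median of -0.44, where 17.9% of all tested genes were higher and 20.7% lower. Among those lower were Uhrf1 (-4.17), which brings the maintenance methyltransferase to DNA, Dnmt1 (-2.33), that methyltransferase, and the CAF-1 subunits Chaf1a (-3.30) and Chaf1b (-3.69), which load histones behind the replication fork. In WT 27 rose and 8 fell by 24 h (66.6% of all genes called), with Uhrf1 at 6.40, Chaf1a at 5.78, the histone chaperone Asf1b at 3.85 and the heterochromatin protein Cbx5 at 2.26. At 0 h 3 were higher in KO (Uhrf1 1.57, Chaf1a 1.42, Daxx 0.42; 5.7% of all genes called) and at 8 h 1 lower (Uhrf1 -0.61; 2.65%). A link between these gene changes and ERVL levels was not tested. MT2_Mm alone was at 27.0 and 30.9 CPM in KO and 18.9 and 17.0 in WT at 24 h. As given above, this difference was called, but not without its top locus or with repeat totals. MERVL-int alone, which was not called, was at 16.4 and 15.998 in KO against 12.5 and 11.2 in WT. The MERVL-int elements joined to MT2_Mm were at 17.5 and 19.7 against 15.8 and 14.2 where 5 kb or longer, and at 1.85 and 2.26 against 2.80 and 2.76 where shorter. Of 18 listed activators, 2 were tested: Nelfa (-0.27 in KO at 24 h, adjusted p = 0.047) and Smarcad1, which rose in WT by 1.05 at 24 h. Of 37 genes of the 2-cell stage, 35 were in the gene table. Of these 25, Zscan4c, Zscan4d, Zfp352 and Tcstv1 included, had 0 counts in all 12 libraries, and only Sp110 was tested (-1.26 in WT at 8 h).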

How the data were processed

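Read counts per gene and per repeat locus of 12 libraries were used as deposited by the authors, unnormalized whole numbers. Per the submitters' processing notes the tools were fastp 0.12.4 and STAR 2.7.1a on mm10, and the sources used here name neither the counter nor the handling of multi-mapping reads. Repeat names gave class, subfamily and position. Counts were summed to families and subfamilies. The locus, subfamily, family and gene tables were each fitted with edgeR 4.0.16 (R 4.3.3; robust quasi-likelihood, 6 group means, library sizes and TMM factors of the gene table, filterByExpr with a minimum count of 10), with Benjamini-Hochberg adjustment over each table and calls at 0.05. Levels are CPM of gene counts. Loci were placed in exons, introns or outside genes with GENCODE M21 (GRCm38, the sequence of mm10).

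Gene-table depth was 16810375 to 19126498 counts; loci with few counts are limited by counting error. The members and lists were chosen with earlier results of these data known. Text names both sums and the MERVL and MT2 subfamilies that matter; the 5 older subfamilies with the largest called change per direction (mean count of 50 or more); the 10 highest loci; and the 5 loci, and 3 outside genes, with the largest called change per direction (mean count of 20 or more). Of these, 1 locus is not reported here. Others are said to be chosen afterwards. Alternatives were DESeq2 1.42.0, other scalings, fewer loci or libraries and a replicate block. Scripts were tested on simulated data.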

Additional observations from a re-analysis of the deposited data

Results flagged for a closer look

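A test of the difference between times, the change of the KO effect from 0 to 24 h (edgeR, adjusted p under 0.05), picked out 17 of the sums, subfamilies and loci reported here. Positive values (log2) mean that KO relative to WT was higher at 24 h than at 0 h. Among sums and subfamilies these were the older ERVL sum (0.38), MT2B1 (0.72), MT2_Mm (0.84), MER74B (1.70), ERVL-B4-int (1.31), LTR16A2 (1.21), LTR16C (0.88) and LTR41B (-1.75). Among loci they were MT2B1 of Gimap3 (0.94), MT2B of Ikbke (2.30), MERVL-int of Stat5a (2.57), MER74B of Gramd1b (2.13) and MLT2F of 4930417O13Rik (1.41), with lower values for MT2B2 of Stip1 (-1.22), MT2B of Ncaph (-4.35), LTR41B of Dhcr7 (-2.04) and RLTR35B_MM of Slamf6 (-1.81). Many of these calls rest on single libraries. Leaving out 1 library at a time, besides the cases of the older sum, MT2B1 and MT2_Mm given above, ended those of ERVL-B4-int (WT 0 h replicate 1 or 2, WT 24 h replicate 2, KO 0 h replicate 1, KO 24 h replicate 2), LTR16A2 (either WT 0 h or WT 8 h library, WT 24 h replicate 1, KO 0 h replicate 1, KO 24 h replicate 2), LTR16C (either WT 0 h or WT 24 h library, KO 0 h replicate 1, KO 24 h replicate 2) and LTR41B (WT 0 h replicate 1, WT 24 h replicate 1). Among loci it ended those of MERVL-int of Stat5a (WT 0 h replicate 1, either WT 24 h library, KO 0 h replicate 1, KO 24 h replicate 1), RLTR35B_MM of Slamf6 (WT 0 h replicate 2, WT 24 h replicate 1, KO 0 h replicate 2, either KO 24 h library), MLT2F of 4930417O13Rik (WT 0 h replicate 2, WT 24 h replicate 1, KO 0 h replicate 1), MER74B of Gramd1b (WT 0 h or KO 0 h replicate 1) and MT2B of Ikbke (KO 24 h replicate 2). The count of 8 subfamilies was 1 and 2 without WT 0 h replicate 1 or 2, 2 and 3 without WT 24 h replicate 1 or 2, 2 and 24 without KO 0 h replicate 1 or 2, 14 without either KO 8 h library and 2 without KO 24 h replicate 2. The count of 21 loci was 33 without KO 0 h replicate 2 and 12 without KO 24 h replicate 1.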

How the results depend on the processing

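Low counts, 2 libraries a group and the dependence on host genes limit the locus and subfamily results; the cause of each change below was not tested. With repeat-table totals, for MERVL and MT2 the KO difference at 0, 8 and 24 h was 0.0034, -0.048 and -0.13. Their WT change at 8 and 24 h was -0.070 and -0.093, the change of the KO effect to 8 and 24 h -0.052 and -0.13 and the mean over times -0.059. For the older sum the values were 0.061 and -0.029 (0 and 24 h), -0.044 and -0.062 (WT), and -0.043 and -0.090 (change of the KO effect). With them 9, 28 and 32 subfamilies were called (KO 24 h, WT 8 h, WT 24 h). MT2A (0.033 and 0.077) and MT2B2 (0.057 and 0.26) in WT at 8 and 24 h and MT2B (0.41), MT2_Mm (0.43) and MERVL-int (0.18) in WT at 24 h turned positive.

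Without exonic loci, 2, 1, 15, 203, 275 and 1 loci were called (KO at 0, 8 and 24 h, WT at 8 and 24 h, change of the KO effect to 24 h), 0 subfamilies at 0 h and 2 in the change to 24 h. The older sum was 0.50 in KO at 24 h (adjusted p = 0.039) and 0.69 in the change (0.056). LTR41B turned to 0.35 (change) and -0.65 (WT 24 h), LTR33A to 0.30 (KO 24 h), LTR16A to -1.51 and MLT2F to -1.07 (WT 8 h), and LTR101_Mam to 0.65 and 0.76 (WT 8 and 24 h). With only loci outside genes, the counts of loci were 1, 0, 4, 50, 60 and 0, those of subfamilies 11 (KO 24 h), 13 and 29 (WT) and 4 (change). MERVL and MT2 were at 0.41 in KO at 24 h (0.008), 0.62 in the change (0.005) and -0.21 in WT at 8 h, and the older sum at 0.59 and -0.35 (KO 24 h, WT 8 h). There WT 8 h values of MERVL_2A-int joined to MT2A (0.40), MERVL_2A-int joined to MT2B1 (2.15; 0.26 at 24 h), MT2B1 (0.43), MLT2F (-1.94) and LTR16A (-0.90), and LTR33A in KO at 24 h (0.89), changed sign. Each subfamily without its top locus gave 0 calls at 0 h and 4 in the change to 24 h, and turned LTR41B (0.35 change, -0.65 WT 24 h), LTR101_Mam (0.058 and 0.53), MLT2F (-0.35), LTR16A (-1.35) and LTR33A (0.17). This setting and the 2 that leave out 3 KO libraries were chosen after seeing the data.

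DESeq2 called 36 loci in KO at 24 h and gave the MERVL and MT2 change 0.29 (0.050). The older change was 0.33 with RLE factors and 0.35 without TMM factors, where 2 subfamilies were called. With only the libraries compared, 4 loci were called at 0 h. There MERVL and MT2 were at 0.17 (KO 24 h, 0.014) and 0.33 (change, 0.027), and the older sum at 0.27 (0.002). The replicate block gave 0.26 for the older sum in KO at 24 h (0.020), 0.33 for the MERVL and MT2 change and 14 subfamilies in that change. The numbers were not taken to pair the samples: same-numbered deviations correlated at -0.21 to 0.31 over repeat subfamilies and -0.15 to 0.39 over genes, and, between WT and KO of 24 h, at 0.029 and 0.017. Within a genotype all gene correlations were positive (0.13 to 0.39). The erythroid marker sum was higher in WT replicate 1 at 0, 8 and 24 h, but in KO replicate 1 only at 0 h. The basophil and mast cell sum was higher in KO replicate 2 at all times (293 against 783, 120 against 397 and 178 against 646). The labels do not say whether same-numbered libraries of a genotype share a source. Tests between times treat all libraries as independent, and the block used the same term for both genotypes. Without the 3 KO libraries numbered 1, subfamily counts were 3, 29 and 15 (KO 8 h, 24 h, change), and locus counts 4 (0 h) and 13 (change). MERVL and MT2 were then at 0.18 (KO 24 h) and 0.25 (change), and the older sum at 0.24, 0.33 and 0.28 (KO 8 h, 24 h, change to 8 h). Without those numbered 2, MERVL and MT2 were at -0.27, -0.030 and 0.15 (KO) and 0.24 and 0.42 (changes), and the older sum at -0.19, -0.0045 and 0.20. There were then 15 loci at 0 h, 1 at 8 h, and 15 (0 h) and 26 (change) subfamilies.

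Leaving out 1 library at a time, MERVL and MT2 ran from -0.27 to -0.07, -0.030 to 0.13 and 0.13 to 0.20 (KO at 0, 8 and 24 h), -0.53 to -0.48 and -0.85 to -0.78 (WT), and 0.12 to 0.32 and 0.24 to 0.44 (changes). The older sum ran from -0.19 to -0.04, -0.0045 to 0.24, 0.20 to 0.33, -0.50 to -0.46, -0.84 to -0.74, 0.11 to 0.35 and 0.31 to 0.46. Subfamily counts ran from 0 to 1, 0 to 0, 2 to 22, 26 to 47, 42 to 71, 0 to 0 and 1 to 24, and locus counts from 4 to 13, 1 to 4, 28 to 71, 227 to 382, 311 to 494, 0 to 2 and 12 to 33. Where 1 library is left in a group, it is assumed to vary like the others.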
